A study of Mus musculus with 27 samples.

Results

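The cells described here are the primordial germ cell-like (PGC-like) cells of mouse gastruloids, taken as Leiden cluster 6 of the gastruloid cells. The cluster held 419 of 4637 cells, or 9.04%, and all 419 of them, and no other cell, carried the germ layer label of pluripotency. Gastruloids are aggregates of mouse embryonic stem cells (mESCs) that elongate in culture and form derivatives of the germ layers. All of them were made from 1 hybrid mESC line of genotype 129S1/SvImJ / C57BL/6, and each was dissociated 120 h after aggregation, sorted with the viability dye DAPI and sequenced by CEL-seq2 on a plate of its own. All of them also received the study's standard pulse of chiron, used there to activate Wnt signalling, after aggregation. The 3 groups differed in the medium of the mESCs before aggregation. Condition 1 was kept in ESLIF, a medium with serum and leukaemia inhibitory factor. Conditions 5 and 6 were also kept in ESLIF at first. Condition 5 then received 48 h of 2i medium, followed by 48 h of ESLIF. The 2i medium is serum-free, with N-2 and B-27 supplements, leukaemia inhibitory factor and the inhibitors chiron (CHIR99021) and PD032509. Condition 6 received 24 h of 2i followed by 24 h of ESLIF. Each condition had 5 gastruloids, which are called 1A to 1E, 5A to 5E and 6A to 6E and are the replicates of every comparison. The labels call them biological replicates, and the spread between them is that of 1 cell line.

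Primordial germ cells are the precursors of eggs and sperm. In the mouse embryo they are set aside from the proximal epiblast around gastrulation, and they keep or regain genes of the pluripotency network while their neighbours enter somatic lineages. Pou5f1 encodes the core pluripotency factor OCT4, Dppa3 encodes STELLA, a maternal and germ cell factor that protects DNA methylation patterns in the early embryo, and Dppa5a and Utf1 are genes of pluripotent cells. Several of these genes are also active in mESCs, so a pluripotent cell in a gastruloid may be a germ cell-like cell or a cell that has kept its earlier state. The label could not be checked against these markers here, because the values analysed were per-cell summaries and gene-level values were not analysed here. Doublets were not tested for the same reason. The name PGC-like is therefore that of the study.

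The gastruloids contributed between 261 and 348 cells each. Well barcodes are shared between plates, and each of the 376 well numbers in use occurred on more than 1 plate, but all 4637 cell names were unique. PGC-like cells lay at 257 well numbers, with at most 4 at any of them.

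PGC-like cells were found in 15 of 15 gastruloids, and their share varied most between gastruloids of the ESLIF condition. In condition 1 the share was 11.3% in 1A, 1.97% in 1B, 3.02% in 1C, 15.6% in 1D and 6.35% in 1E. These 5 gastruloids held both the lowest and the highest share of all 15. In condition 5 the share was 12.97% in 5A, 10.9% in 5B, 4.60% in 5C, 7.72% in 5D and 11.97% in 5E. In condition 6 it was 10.4% in 6A, 7.77% in 6B, 8.10% in 6C, 10.1% in 6D and 11.4% in 6E. The ranges of the 3 conditions overlapped. The 95% Wilson interval, which covers counting error only, ran from 0.905% to 4.22% for the 6 PGC-like cells of 1B and from 11.9% to 20.1% for the 47 of 1D.

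**Figure D1:**
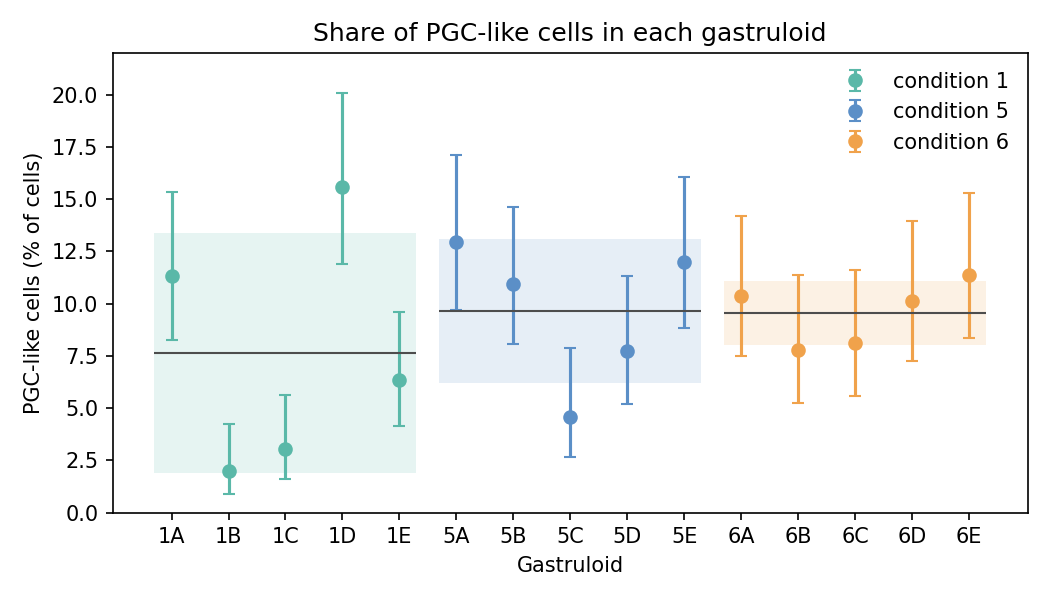
Share of PGC-like cells, in percent of the cells of each gastruloid, with 95% Wilson intervals as bars; lines and shaded bands are the mean and SD of each condition (n = 5). Condition 1 spans 1.97% to 15.6%, and condition 6 spans 7.77% to 11.4%.

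No difference in the mean share between the conditions was detected. Gastruloids of condition 1 averaged 7.65% ± 5.73 (SD, n = 5), those of condition 5 averaged 9.64% ± 3.44 and those of condition 6 averaged 9.55% ± 1.55. Exact two-sided rank-sum tests gave p = 0.548 for condition 1 against 5, p = 0.548 for condition 1 against 6 and p = 0.841 for condition 5 against 6, and each of these was 1 after multiplication by the 3 pairs. The smallest p that 5 against 5 gastruloids can give is 0.00794. Over the 25 pairwise differences of gastruloids, the 96.8% interval of the shift was -9.95 to 6.73 percentage points for condition 1 minus 5, -8.36 to 5.44 for condition 1 minus 6 and -5.53 to 4.20 for condition 5 minus 6, so that shifts of several points in either direction were within reach of these data.

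The spread between gastruloids was widest in condition 1, but no difference in spread passed a test. The highest share was 7.91-fold the lowest in condition 1, 2.82-fold in condition 5 and 1.47-fold in condition 6. The SD was 3.77 times that of binomial counting in condition 1, 2.03 times in condition 5 and 0.938 times in condition 6, a ratio that 5 gastruloids give only roughly and that was not tested. The mean absolute deviation from the median was 4.38 points in condition 1 and 1.18 points in condition 6, which did not pass an exact permutation test chosen after these values were seen (p = 0.0714, or 0.214 after multiplication by 3). Nor did condition 1 against 5 (exact permutation p = 0.357) or condition 5 against 6 (exact permutation p = 0.341).

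Gastruloid 1D stood apart in its make-up. Spinal Cord cells were 58.9% of its cells (178 of 302), and it held 39 mesoderm cells beside 47 PGC-like cells. With Spinal Cord and Neural Crest cells left out of every gastruloid, the share of PGC-like cells was 38.5% in 1D and between 2.14% and 12.3% in the other 4 of condition 1. The mean of condition 1 then rose to 12.8% ± 14.9 and lay above those of condition 5 (9.69%) and condition 6 (9.67%), while its mean without 1D was 6.37%. With these cell types left out, the direction of the difference between condition 1 and the others thus depended on 1D. With all cells in the denominator, the mean of condition 1 stayed the lower whichever 1 gastruloid was left out. The difference did not pass the exact rank-sum test in either form (p = 0.690 for both pairs without these cell types).

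PGC-like cells carried more transcripts than the other cells of their own gastruloid, in all 15 gastruloids. Their median total count per cell ran from 9565 in 6C to 14846 in 6B, and that of the other cells from 6697 in 1D to 11936 in 6B. As a ratio of these medians, PGC-like over other cells, the gastruloids of condition 1 stood at 1.13 (1A), 1.76 (1B), 1.42 (1C), 1.59 (1D) and 1.13 (1E). Those of condition 5 stood at 1.32 (5A), 1.32 (5B), 1.22 (5C), 1.35 (5D) and 1.51 (5E). Those of condition 6 stood at 1.08 (6A), 1.24 (6B), 1.22 (6C), 1.28 (6D) and 1.26 (6E). No gastruloid fell below 1, and condition 1 again had the widest range. Pooled over gastruloids the median was 11339 counts for PGC-like cells and 8882 for the others. PGC-like cells had the highest median of the 11 cell types, followed by NMP/Caudal Epiblast cells, the neuromesodermal progenitors of the tail end, at 10122. Before clustering, the study scaled cells to equal totals and regressed out counts, mitochondrial share and phase, so total counts were not what the clusters were built on directly.

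**Figure D2:**
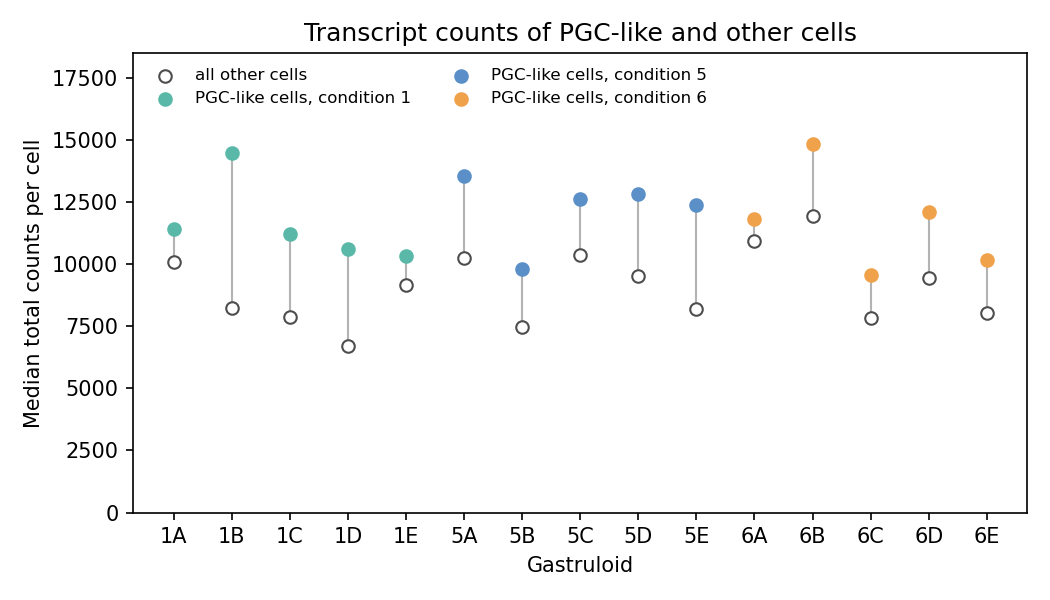
Median total counts per cell of PGC-like cells (filled) and of all other cells (open) in each of the 15 gastruloids, joined by a line. The filled point lies above the open one in 15 of 15, with the smallest gap in 6A (1.08-fold) and the largest in 1B (1.76-fold).

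The mean log2 ratio of medians was 0.39 ± 0.19 (SD, n = 15), a 1.31-fold difference, and the exact two-sided sign-flip permutation test gave p = 6.1e-05, the smallest it can give with 15 gastruloids (0.00012 after Benjamini-Hochberg adjustment over 4 tests). The 1.76-fold of 1B rests on 6 PGC-like cells. In the 12 gastruloids with at least 20 PGC-like cells the mean log2 ratio was 0.35. It was 1.29-fold among cells in S phase (higher in 15 of 15) and 1.32-fold among cells in G2M phase (higher in 14 of 15). Set against single cell types, as a description, the mean ratio was 1.20-fold for Somite cells (higher in 13 of 15), 1.21-fold for Presomitic Mesoderm (13 of 14), 1.32-fold for the Differentiation Front (14 of 14) and 1.63-fold for Early Somite cells (15 of 15). It was smaller for NMP/Caudal Epiblast and Endoderm, for which it was tested. Against NMP/Caudal Epiblast cells it was 1.12-fold, with PGC-like cells higher in 10 of 14 gastruloids (exact sign-flip p = 0.0187, adjusted p = 0.0374). Each type was compared in the gastruloids that held enough of its cells, at least 5 of that type. Against Endoderm it was 1.16-fold, higher in 8 of 12, which did not pass after adjustment (exact p = 0.0381, adjusted p = 0.0508).

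The same difference can be read as a share. With the cells of each gastruloid sorted by total counts, PGC-like cells were on average 4.80% of the cells in the lowest of 3 equal classes, 7.72% in the middle class and 14.3% in the highest class, or 75, 120 and 224 cells. The highest class held a larger share than the lowest in 15 of 15 gastruloids. Of the top 10% of cells by counts, PGC-like cells made up 20.5% on average. A minimum of 1000 counts would remove 8 of the 419 PGC-like cells and 143 of all 4637 cells.

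**Figure D3:**
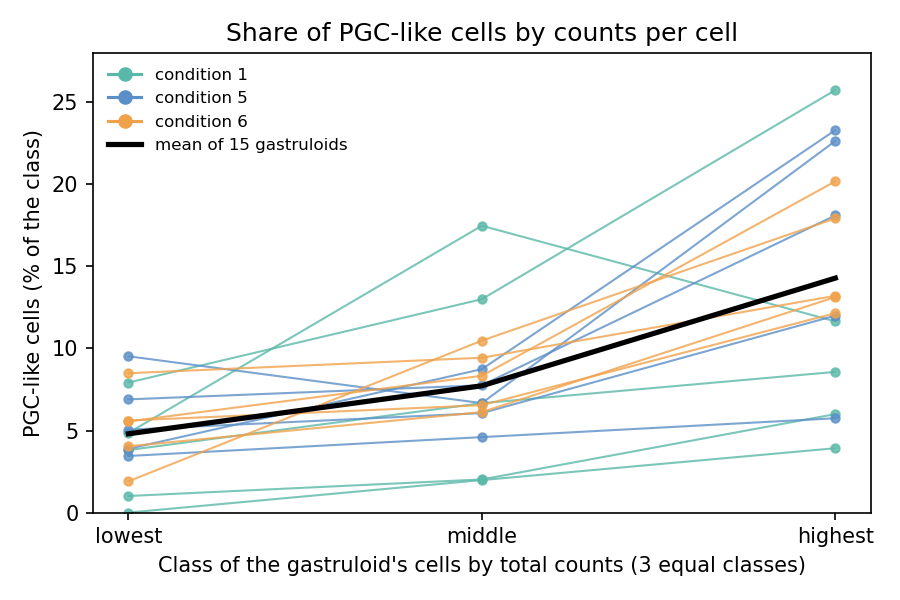
Share of PGC-like cells, in percent, in the lowest, middle and highest of 3 equal classes of each gastruloid's cells by total counts; thin lines are gastruloids and the thick line their mean. The mean goes from 4.80% to 14.3%, and 1A and 5A do not rise at each step.

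PGC-like cells also had more genes detected, and the number of genes followed the counts. Genes detected come from the transcripts that were clustered, and their number was not itself regressed out. The p-values for genes therefore describe how regular the difference was over gastruloids, and are no independent test of the cluster. The median number of genes per cell was 4368 to 5585 in PGC-like cells and 3575 to 5031 in the other cells, and the ratio was 1.15-fold with PGC-like cells higher in 15 of 15 (exact sign-flip p = 6.1e-05). At equal counts the direction turned. When each PGC-like cell was set against cells of the same gastruloid within 10% of its counts, which was possible for 409 of 419, it had 0.917% fewer genes on average (log2 ratio -0.013 ± 0.012, lower in 12 of 15, exact p = 0.00159, adjusted p = 0.00212). The direction of this small difference depended on the width of matching. Within 20% PGC-like cells had slightly more genes (log2 ratio 0.0083, higher in 10 of 15, exact p = 0.0101), but in that window they still had 0.062 more log2 counts than their matches, against 0.016 in the window of 10% and 0.0049 in a window of 5%. In the window of 5%, added after these values were seen, the log2 ratio was -0.018 and PGC-like cells were lower in 14 of 15. A quadratic fit of genes on counts, also added afterwards, gave -0.023 and lower in 15 of 15.

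No difference in the mitochondrial share between PGC-like cells and all other cells of the gastruloid was detected. The median was 4.35% to 5.94% of counts in PGC-like cells of a gastruloid and 4.28% to 5.42% in the others, and the mean difference of 0.079 ± 0.28 percentage points (higher in 10 of 15) did not pass the test (exact sign-flip p = 0.297). This result depended on the cells it was set against. At equal counts, an alternative added after the data were seen, the difference was 0.34 points (p = 0.00104, exact). With each other cell type given equal weight it was 0.39 points (p = 0.00739, exact). Without Allantois cells, whose median was 0.343%, the equally weighted difference was -0.019 points (p = 0.831, exact, an alternative added after the data were seen). The direction also differed between single types. Against NMP/Caudal Epiblast cells PGC-like cells were 0.22 points higher, in 13 of 14 gastruloids (exact sign-flip p = 0.000366, adjusted p = 0.00146). Against Endoderm the difference was -0.30 points, higher in 4 of 12, and did not pass (exact p = 0.112, adjusted p = 0.112). As a description, it was -0.41 points against Early Somite cells, with PGC-like cells higher in 1 of 15 gastruloids, and -0.087 points against Somite cells, higher in 7 of 15. Of the 419 PGC-like cells 6 exceeded 10%, a similar share to the 63 of all 4637 cells. None of the PGC-like cells was under 1%, and 99 of all cells were. Allantois, the type with the low median given above, had 96 cells.

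Nearly every PGC-like cell was labelled as in S or G2M phase. The authors' phase labels placed 266 of them in S phase (63.5%), 145 in G2M (34.6%) and 8 in G1 (1.91%), against 55.8%, 37.2% and 6.97% of the other cells. The pooled G1 share of the others includes Allantois (64.6%) and Endothelium (45.2%). NMP/Caudal Epiblast cells had a lower G1 share than PGC-like cells (0.945%), with 64.8% in S phase and 34.2% in G2M. The share in G1 was lower than that of the other cells in 14 of 15 gastruloids, the exception being 6E with 8.11% against 6.94%. Phase was the one that the 2 scores give by rule in 100% of cells, so it adds nothing to them, and no cycling rate can be read from these labels. The scores come from transcripts of the same cells that were clustered, so PGC-like cells are set against other cells without a test.

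Both cell-cycle scores were higher in PGC-like cells in 15 of 15 gastruloids. The S score, named for the phase of DNA replication, averaged 0.0537 ± 0.0054 in PGC-like cells and 0.0344 ± 0.0037 in the others (SD, n = 15). It was the highest of the 11 cell types. The G2M score, named for the G2 phase and mitosis, averaged 0.0382 ± 0.0050 and 0.0220 ± 0.0049, second to Somite cells. The difference in S score was 0.00669 to 0.0291 over the gastruloids, and that in G2M score was 0.00217 to 0.0271. Of the PGC-like cells 12 had an S score below 0 (2.86%), against 516 of the other cells (12.2%). Against single types, the S score was higher than in NMP/Caudal Epiblast cells in 13 of 14 gastruloids, by 0.0084 on average, and than in Early Somite cells in 11 of 15, by 0.0080. The G2M score was lower than in Somite cells in 13 of 15, being higher in 2. At equal counts the S difference was 0.0200 and the G2M difference fell from 0.0162 to 0.00532, positive in 13 of 15. The G2M score, unlike the S score, went with counts among PGC-like cells. In the 12 gastruloids with at least 20 of them the rank correlation across cells, which share a plate and are not replicates, had a median of 0.354 for counts and G2M score (positive in 12 of 12) and -0.0566 for counts and S score (positive in 4 of 12). The mitochondrial share went the other way with counts, with a median of -0.352 (negative in 12 of 12), and the 2 scores had a median of -0.368 with each other (negative in 12 of 12).

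**Figure D4:**
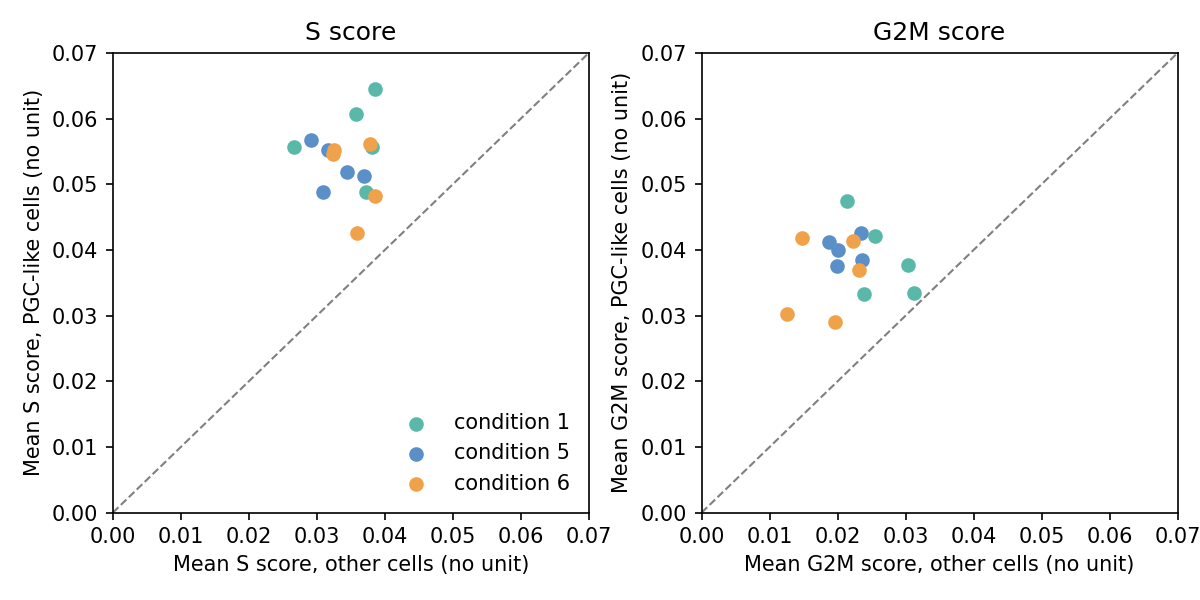
Mean S score (left) and G2M score (right) of PGC-like cells against the other cells of the same gastruloid; each point is a gastruloid, and the dashed line marks equal values. The 15 points lie above the line in both panels.

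The pre-culture conditions were not found to change how PGC-like cells differed from their neighbours. Over counts, mitochondrial share, S score and G2M score, 12 exact rank-sum tests were made, of which 0 passed and 1 had an unadjusted p under 0.05. This was the mitochondrial difference, which averaged 0.28 points in condition 1 (positive in 5 of 5) and -0.15 points in condition 5 (negative in 4 of 5), with p = 0.0317 in the exact test and 0.0952 after multiplication by 3. Benjamini-Hochberg adjustment over the 12 tests gave 0.381 for it. The difference passed under some other settings, among them a minimum of 1000 counts (0.47 points, p = 0.0238 after multiplication by 3, exact). It did not pass with means in place of medians (0.49 points, exact p = 0.452 after multiplication by 3). Nor did it pass with cell types weighted equally (0.44 points, exact p = 0.452 after multiplication by 3), so the call depended on the setting. For counts, the gastruloids overlapped, with a log2 ratio of 0.47 ± 0.29 for ESLIF alone, 0.42 ± 0.11 after the 48 h pulse of 2i and 0.28 ± 0.098 after the 24 h pulse.

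On the UMAP of the study, a map that places cells with like transcript profiles close together, PGC-like cells were mostly surrounded by their own type, as were most other types. Of the 15 nearest neighbours of each PGC-like cell 98.9% were PGC-like, and 402 of 419 cells had no other kind. This share was second of the 11 types, after Allantois (98.96%) and before Endothelium (98.4%), NMP/Caudal Epiblast (96.96%), Presomitic Mesoderm (95.8%), Spinal Cord (94.2%) and Endoderm (93.5%). Of 6285 neighbours 68 were of another type, and 65 of these were Endoderm. In turn 24 cells of other types had a PGC-like cell among their neighbours, and all 24 were Endoderm, 17.9% of the 134 Endoderm cells. A second set of 15 group numbers in the table, whose origin is not given in the sources used here, placed 409 PGC-like cells in 1 group with 3 other cells and the other 10 in a group with 121 Endoderm cells. Of these 10 cells 8 came from condition 1 and 2 from condition 6, over 7 gastruloids. The map and the clusters come from the same transcripts, so these are descriptions.

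Within the group, PGC-like cells lay nearer on average to cells of their own condition, but not on every plate, as given below for condition 6. Of the 15 nearest PGC-like neighbours 51.3% came from the same condition, against 33.6% in an even mix, and with the cell's own gastruloid left out it was 42.1% against 28.1%, above the even mix in 13 of 15 gastruloids. Other types were not evenly mixed either. The ratio of observed to even mix was 1.50 for PGC-like cells, and among the 4 other types with over 500 cells it was 1.37 in NMP/Caudal Epiblast, 1.06 in Presomitic Mesoderm, 1.27 in Somite and 1.61 in Early Somite cells. On the second UMAP axis the median of PGC-like cells was 9.02 to 9.61 in the gastruloids of condition 5, 7.97 to 8.50 in those of condition 6 and 8.15 to 9.52 in those of condition 1. Conditions 5 and 6 did not overlap, and condition 1 overlapped with both.

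The gastruloids of condition 6 also differed among themselves. Their labels number the plates, and 6A, 6B and 6C are plates 2, 1 and 3, while 6D and 6E are plates 14 and 15. The median on the first axis was -2.90, -2.80 and -2.03 in the first 3 and -1.56 and -1.60 in the other two, so that 6C lay nearer to 6E than to 6B on this axis. PGC-like cells of plates 1 to 3 had 43.1% of their neighbours in other gastruloids of these plates, against 13.8% in an even mix, and 19.8% in plates 14 and 15, against 17.6%. The corresponding ratio for the same plates was 2.82 in NMP/Caudal Epiblast and 2.43 in Early Somite cells, 1.14 in Presomitic Mesoderm and 1.07 in Somite cells, beside 3.12 in PGC-like cells. PGC-like cells of plates 14 and 15 had 16.8% of such neighbours in plates 1 to 3, against 21.3% in an even mix. In the other of their own plates they had 13.4%, against 8.93%. They had 31.6% in condition 1, against 30.4%, and 38.2% in condition 5, against 39.3%. Plates of conditions 1 and 5 carry unbroken numbers (9 to 13 and 4 to 8), so plate order and condition cannot be told apart there. What the numbers stand for is not given in the sources used here.

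**Figure D5:**
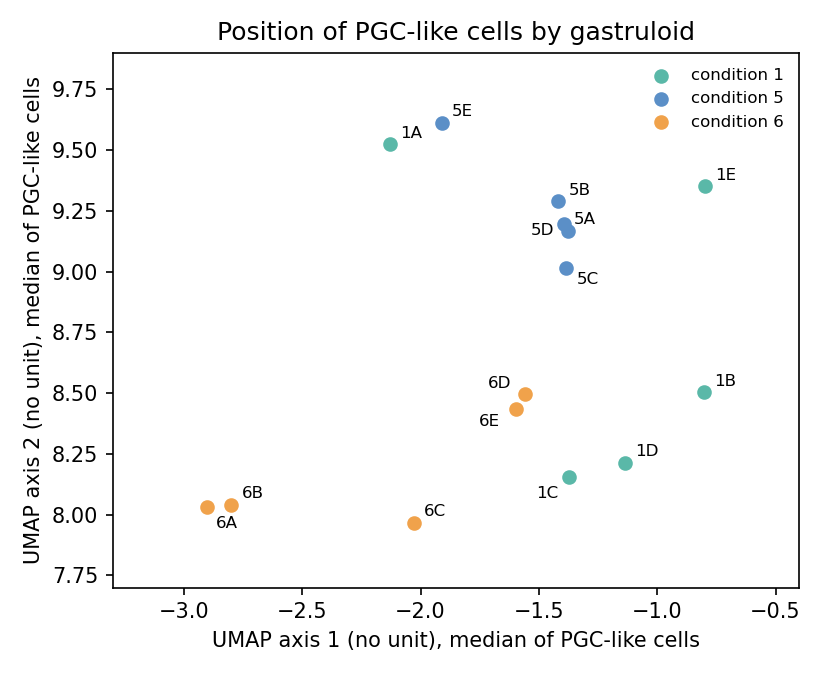
Median UMAP position of the PGC-like cells of each gastruloid; axes have no unit and distances on them are not a scale of expression. Conditions 5 and 6 do not overlap on axis 2, and 6A, 6B and 6C lie to the left of 6D and 6E on axis 1.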

How the data were processed

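Single cells of 15 gastruloids were measured by CEL-seq2, 1 plate per gastruloid. Per the labels and the study's methods, the authors trimmed reads with cutadapt 4.1, aligned them with STAR 2.5.3a to GRCm38 with strain SNPs masked, removed duplicates and left out shallow and mitochondria-rich cells. SAMtools 1.15.1 is also listed in the submitters' processing notes. The deposited table gives, per cell, total counts and genes detected as raw counts, the mitochondrial share as a fraction (printed here in percent), S and G2M scores without a unit, phase, cluster, cell type and UMAP coordinates. How the scores were made is not given in the sources used here. The authors scaled cells to equal totals, took logs, regressed out counts, mitochondrial share and phase, and clustered with the Leiden method. Cell type names follow the study's figure, matched to the table by equal cell numbers.

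Here each gastruloid was summarised by medians (counts, genes, mitochondrial percent) or means (scores). Conditions were compared by exact two-sided rank-sum tests (p multiplied by 3), and PGC-like with other cells by exact sign-flip tests over 15 gastruloids, Benjamini-Hochberg adjusted over 4. A result was called at an adjusted p under 0.05. The exact tests were tested on simulated data. Python 3.11.15, NumPy 2.4.6, SciPy 1.17.1, pandas 2.3.3, scikit-learn 1.9.0 and matplotlib 3.10.9 were used. Samples were grouped by the pre-culture condition in their labels. The 12 mESC samples and the sequencing reports were not used here, since they hold no gastruloid cell. No gene is named with a value, as fixed in the rule for named genes. The cells, lists and tests were chosen with earlier results of these data known.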

Additional observations from a re-analysis of the deposited data

Results flagged for a closer look

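The ratio of counts of PGC-like over other cells in gastruloid 6A stood apart from that in the other gastruloids of condition 6. The log2 ratio of the median counts of PGC-like over other cells was 0.113 in 6A and 0.288 to 0.360 in the other 4, and the gap over the range was 0.712, just past Dixon's critical value of 0.71 for 5 samples. The other cells of 6A had the second highest median of the 15 gastruloids (10940 counts), and its PGC-like cells had 11829. Of 21 groups of gastruloids examined in this way it was 1 that passed, and chance gives about 1 in 20.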

How the results depend on the processing

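Of 132 tested results recomputed under another setting, 111 kept direction and call, and of 210 with 1 gastruloid left out 199 did. The 111 include results recomputed with gastruloids paired by replicate number, which could change in neither direction nor call. They also include permutation tests of mean shares, which could not change in direction. Of 12 recomputed values without a test, 11 moved by less than the SD between gastruloids. The S phase share with phase taken from the scores is among these 11. It could not move, since the phase labels follow from the scores. The higher counts and genes of PGC-like cells kept direction and call in all settings run, except that counts against Endoderm alone (log2 ratio 0.213) missed the threshold once adjusted (0.0508). The cause of the following changes was not tested. Differences of the share turned without Spinal Cord and Neural Crest cells (3.11 points for condition 1 minus 5, 3.13 for 1 minus 6), and the share of 5 minus 6 turned with at least 1000 counts (-0.0354) and as a centred log-ratio (-0.0505).
For levels without subtraction of the other cells, counts turned to -0.0794 for 1 minus 5 and -0.00517 for 1 minus 6 on the log2 scale, the G2M score of 1 minus 6 to 0.00292 and the mitochondrial difference of 5 minus 6 to 0.226, while those of 1 minus 5 (0.567) and 1 minus 6 (0.792) passed the test. With cell types weighted equally, the mitochondrial difference was 0.148 for 5 minus 6 (turned), 0.590 for 1 minus 6 (passed) and 0.386 for PGC-like minus other cells (passed, and -0.0189 without Allantois cells). That of 1 minus 5 also passed with at least 1000 counts (0.470) and at most 10% mitochondrial (0.442), and PGC-like minus other cells was -0.109 against mesoderm alone and 0.343 at equal counts (passed). The S score of 5 minus 6 turned to -0.00208 with medians, genes at equal counts turned to 0.00833 in the 20% window, where a count difference remained, and the G2M difference moved to 0.00532 at equal counts.
With 1 gastruloid left out, the share ran from -3.97 to -0.572 for 1 minus 5, from -3.89 to -0.487 for 1 minus 6 and from -0.749 to 1.34 for 5 minus 6. Counts ran from -0.0401 to 0.120 for 1 minus 5 (turned without 1B or 1D) and from 0.0967 to 0.174 for 5 minus 6 (passed without 5C), the mitochondrial difference of 1 minus 5 from 0.347 to 0.492 (passed without 5B), the S score of 1 minus 5 from -7.09e-05 to 0.00429 (turned without 1D) and the G2M score of 5 minus 6 from -0.000628 to 0.00380 (turned without 6C).
No pairing of gastruloids by replicate number was found. Same-numbered gastruloids correlated at over 0.1 in their deviations of cell type shares in 7 of 15 pairs (range -0.505 to 0.340), and in 2 of 15 the own number gave the best match. With the replicate block, the share differed by -1.99 points for 1 minus 5 (exact p = 0.312), and no call changed, but 5 pairs cannot go below p = 0.0625.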
